A study of Mus musculus with 6 samples.

Results

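Nuclear hormone receptors are transcription factors that bind DNA and, in many cases, a small fat-soluble ligand such as a steroid, thyroid hormone, a retinoid, an oxysterol or a bile acid. Without ligand many of them hold corepressors such as NCoR1, and ligand binding exchanges these for coactivators of the NCOA (p160) family and for the Mediator subunit MED1. In brown fat, thyroid hormone and retinoid receptors are known to act on the thermogenic gene Ucp1, and NRIP1 is known as a repressor of the same programme. The genes examined here were 40 receptors and coregulators, chosen by name, out of 12393 genes tested. They were measured by every probe set whose platform symbol was one of the 40 names, which gave 71 probe sets for 37 genes. No probe set carried the symbol Nr3c2 (mineralocorticoid receptor), Nr1h2 (LXR beta) or Ncor1 alone, and these 3 genes were not analysed here.

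The tissue was brown adipose tissue of mice aged 3.5 months on a mixed background of C57BL6 and 129, given a high fat diet for 3 months. The YY1bKO group held 3 arrays, from mice with floxed YY1 alleles (YY1flox/flox) that also carried Ucp1Cre. This is a Cre recombinase driven by the Ucp1 promoter and therefore meant to act in brown adipocytes. Which cells of the tissue had lost YY1 was not tested. The control group held 3 arrays, from YY1flox/flox mice without that Cre. Both groups shared the floxed alleles, the background, the age and the diet. Values are log2 of the deposited array intensity. Where a gene had several named probe sets, the brightest one over the 6 arrays stood for it, and a difference was called at a limma adjusted p under 0.05 over all genes.

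Yy1 itself was 2.69-fold lower in YY1bKO tissue (log2 fold change -1.43 ± 0.10, SE, limma adjusted p = 0.000854). All 10 brown adipocyte markers examined had a mean intensity above that of the middle probe set of the arrays, and Ucp1 had 13.71, 13.78 and 13.86 in YY1bKO arrays, against 13.98, 13.85 and 13.93 in control arrays. Skeletal muscle transcripts were also present on all arrays. The mean of 13 muscle markers was 12.14, 12.32 and 11.84 in YY1bKO arrays, against 10.94, 13.56 and 10.67 in control arrays. Control replicate 2 stood above the other 5 arrays, and control replicates 1 and 3 lay below all 3 YY1bKO arrays. In a fit without control replicate 2, 12 of the 13 muscle markers were called higher in YY1bKO tissue. Results given below without that array are therefore not evened out for muscle transcripts. The mean of 8 endothelial markers was 8.03, 7.92 and 8.08 in YY1bKO arrays, against 8.76, 8.52 and 8.48 in control arrays, with no overlap (p = 0.1 by a two-sided exact permutation test, which with 3 arrays a side can go no lower, and 0.3 adjusted over 9 marker lists). The same p was found for the mean of 4 nerve and Schwann cell markers, at 6.26 to 6.47 in YY1bKO arrays and 6.86 to 6.91 in control arrays, and of 7 lymphocyte markers, at 5.72 to 5.83 in YY1bKO arrays and 5.59 to 5.68 in control arrays. The other 6 marker means overlapped. Among the 4 nerve and Schwann cell markers, 1 was called lower in YY1bKO tissue and 2 lay higher there without overlap. Of these 4 markers 2 had a mean below the middle probe set, and the median log2 fold change of the list was 0.086. Of the 7 lymphocyte markers 6 had a mean below the middle probe set. Neither group is therefore a pure sample of brown adipocytes, and in such bulk tissue fewer cells of a type and less RNA per cell cannot be told apart.

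No member was called different between YY1bKO and control tissue. Of the 37 measured members, 0 passed an adjusted p under 0.05, whereas 18.3% of all genes tested passed, 10.2% as higher and 8.09% as lower. At an unadjusted p under 0.05 the members numbered 5, with 3 higher in YY1bKO tissue (Esr1, Nr0b2 and Nr4a2) and 2 lower (Rxra and Thra), where 32.0% of all genes had such a p. The arrays of the groups did not overlap for 9 members, of which 6 were higher and 3 lower in YY1bKO arrays, and over all genes this held for 38.5%, with 22.8% higher and 15.7% lower. The median absolute log2 fold change was 0.14 over the members and 0.18 over all genes, and the median signed value was 0.077 over the members and 0.041 over all genes. The intervals show how much change in the array values is left possible. For dim probe sets, treated below, RMA shrinks fold changes, so a narrow interval there does not bound the change in RNA. The 95% interval of the log2 fold change lay within a 2-fold change either way for 35 of the 37 members, and within a 1.5-fold change for 31 of them. Over all genes the shares were 88.7% and 66.4%.

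**Figure D1:**
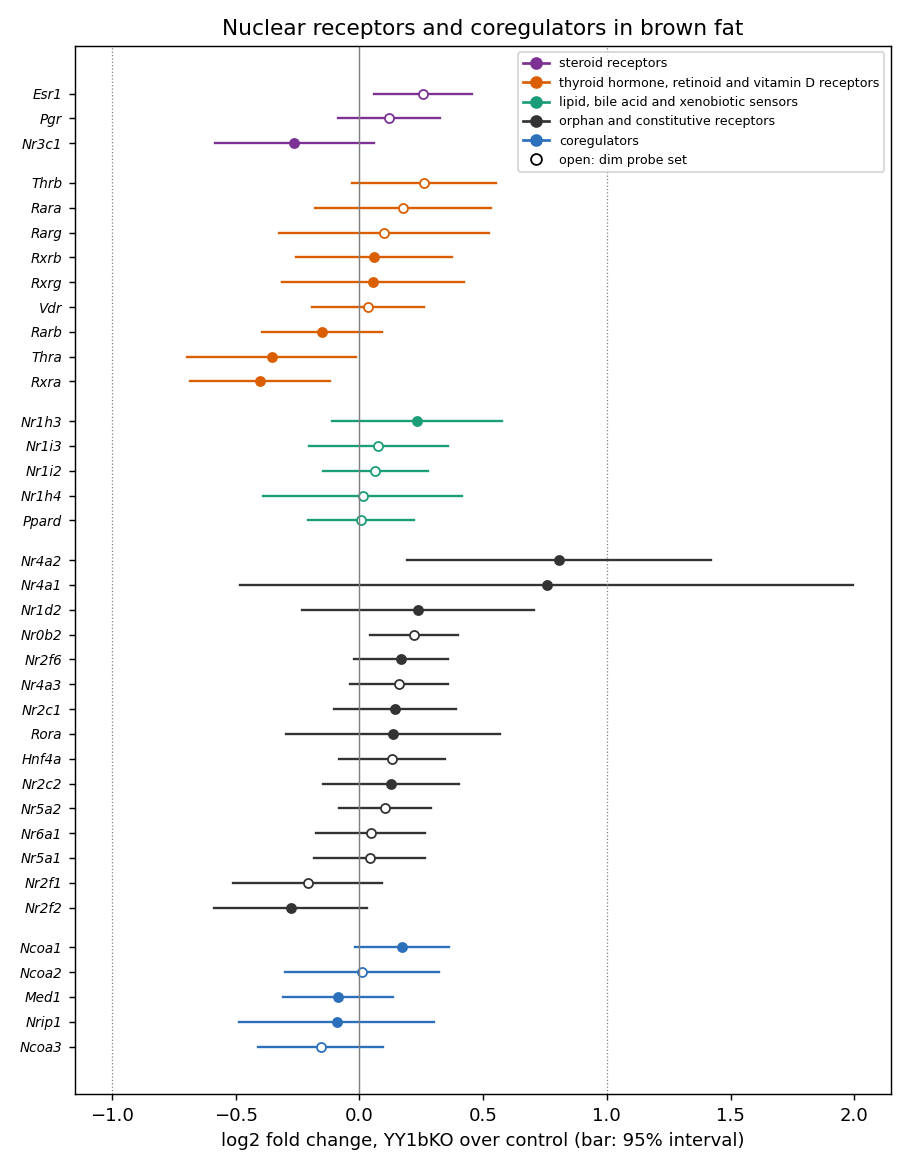
Log2 fold change of YY1bKO over control tissue for the 37 measured members, grouped by role, with bars for the 95% interval, open points for dim probe sets and dotted lines at a 2-fold change. The members Nr4a1 and Nr4a2 have intervals that reach past a 2-fold difference, and the other 35 intervals lie between the dotted lines.

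Signal bears on these counts. A probe set was taken as dim when its mean over the arrays did not exceed 6.49 on the log2 scale. This was the median over all 22690 probe sets, control probe sets included, and 19 of the 37 members were dim. Among all dim genes 8.18% were called, against 26.3% of the bright ones. The 18 bright members, none of which was called, had a median absolute log2 fold change of 0.17, where that of all bright genes was 0.24. Their median standard error was 0.13, and that of all bright genes was 0.11.

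**Figure D2:**
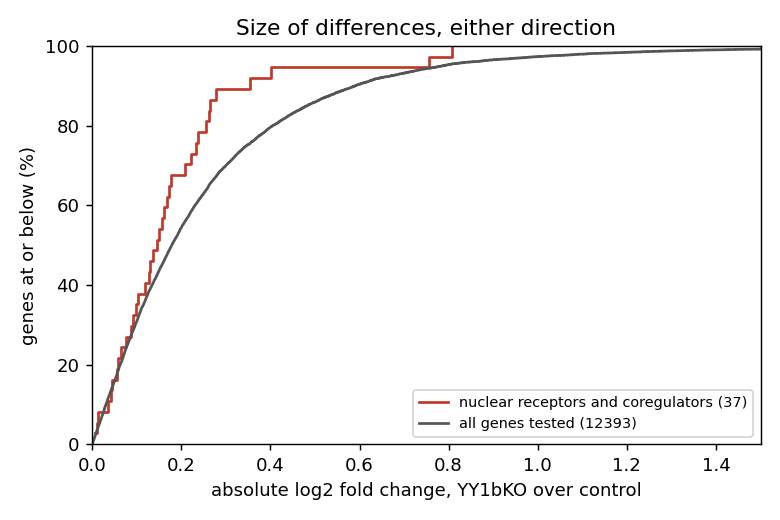
Share of genes (vertical axis, %) at or below a given absolute log2 fold change (horizontal axis, drawn to 1.5), for the 37 members and for the 12393 genes tested. The medians are 0.14 for the members and 0.18 for all genes, and the largest member value is 0.81.

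The NR4A receptors are orphan receptors encoded by immediate early genes that adrenergic and other cAMP signals are known to induce in brown fat. Nr4a2 and Nr4a1 held the largest differences among the members, at log2 fold changes of 0.81 and 0.76, while Nr4a3 gave 0.16. The promoters of these 3 genes are shown because the cAMP response factor CREB is known to act on this family. Each window runs from 250 bases before to 50 bases after the RefSeq start in GRCm38.p6. They lie at chr15:101266596-101266895 (plus strand) for Nr4a1, chr2:57123954-57124253 (minus strand) for Nr4a2 and chr4:48045055-48045354 (plus strand) for Nr4a3. Capitals mark the CREB half-site TGACG on either strand, where CGTCA is its reverse complement.
Nr4a1: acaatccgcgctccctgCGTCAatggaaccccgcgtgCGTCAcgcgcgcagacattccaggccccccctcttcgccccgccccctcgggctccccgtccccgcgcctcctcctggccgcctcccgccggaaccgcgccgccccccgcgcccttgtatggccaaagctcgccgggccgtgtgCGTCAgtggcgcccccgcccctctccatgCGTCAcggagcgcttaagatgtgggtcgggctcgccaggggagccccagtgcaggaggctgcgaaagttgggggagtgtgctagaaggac
Nr4a2: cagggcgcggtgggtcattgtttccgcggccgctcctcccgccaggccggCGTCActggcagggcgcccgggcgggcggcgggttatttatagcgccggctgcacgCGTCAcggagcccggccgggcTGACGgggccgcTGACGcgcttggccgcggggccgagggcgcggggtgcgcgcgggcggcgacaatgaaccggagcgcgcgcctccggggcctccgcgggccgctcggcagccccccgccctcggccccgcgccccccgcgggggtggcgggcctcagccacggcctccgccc
Nr4a3: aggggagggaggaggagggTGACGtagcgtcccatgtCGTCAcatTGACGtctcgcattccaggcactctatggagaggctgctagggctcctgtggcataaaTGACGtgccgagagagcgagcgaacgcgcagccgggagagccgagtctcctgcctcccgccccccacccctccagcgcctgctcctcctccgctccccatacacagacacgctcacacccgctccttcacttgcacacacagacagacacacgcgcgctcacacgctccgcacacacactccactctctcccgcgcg
Each of the 3 windows held 4 half-sites. At least 1 half-site occurred in 25.5% of the promoter windows of members and in 20.8% of all 32851 promoter windows. The share of windows with 4 half-sites was not counted. This motif was chosen after the values had been seen, and a match is a run of letters and not a shown binding site.

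Nr4a2 (NURR1) had 7.80, 6.77 and 7.11 in YY1bKO arrays, against 6.30, 6.64 and 6.32 in control arrays, in its brighter probe set. All 3 YY1bKO values lay above all 3 control values, and YY1bKO replicate 1 was the highest. The log2 fold change was 0.81 ± 0.26 (SE, limma adjusted p = 0.0771), which was not called, and 0.52 without YY1bKO replicate 1. A second probe set of Nr4a2, which was dim by its mean over all 6 arrays, had 8.35, 6.42 and 7.12 in YY1bKO arrays, against 5.26, 5.29 and 5.65 in control arrays. Its mean was 7.30 in YY1bKO arrays, above the dim cut, and 5.40 in control arrays, below it. It was the only 1 of the 71 member probe sets that was called when all probe sets were fitted together (log2 fold change 1.90 ± 0.45, SE, limma adjusted p = 0.0314), where 16.0% of all probe sets were called. In the mean over both probe sets Nr4a2 was called higher (1.35 ± 0.34, SE, limma adjusted p = 0.0398), with 17.3% of all genes called in that setting. The call of the dimmer probe set was lost without YY1bKO replicate 3 (adjusted p = 0.0885), control replicate 1 (0.0990) or control replicate 3 (0.0606), and with the trend and robust options of eBayes (0.0588).

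Nr4a1 (NUR77) had 10.67, 8.81 and 9.21 in YY1bKO arrays, against 8.09, 9.14 and 9.19 in control arrays. YY1bKO replicate 1 was the highest and control replicate 1 the lowest, and the groups overlapped. Without these 2 arrays the mean was 9.01 in YY1bKO and 9.16 in control tissue, so that the direction of the difference turned. The log2 fold change was 0.76 ± 0.52 (SE, limma adjusted p = 0.370), and its 95% interval ran from -0.48 to 1.997. Without YY1bKO replicate 1 it was 0.21, and without control replicate 1 it was 0.40. Nr4a3 (NOR1) had 6.17, 6.34 and 6.18 in YY1bKO arrays, against 6.09, 6.10 and 6.01 in control arrays, without overlap and with a log2 fold change of 0.16 (limma adjusted p = 0.235). Its other probe set, at 3.17 to 3.57 in YY1bKO and 3.08 to 3.35 in control arrays, overlapped between the groups.

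**Figure D3:**
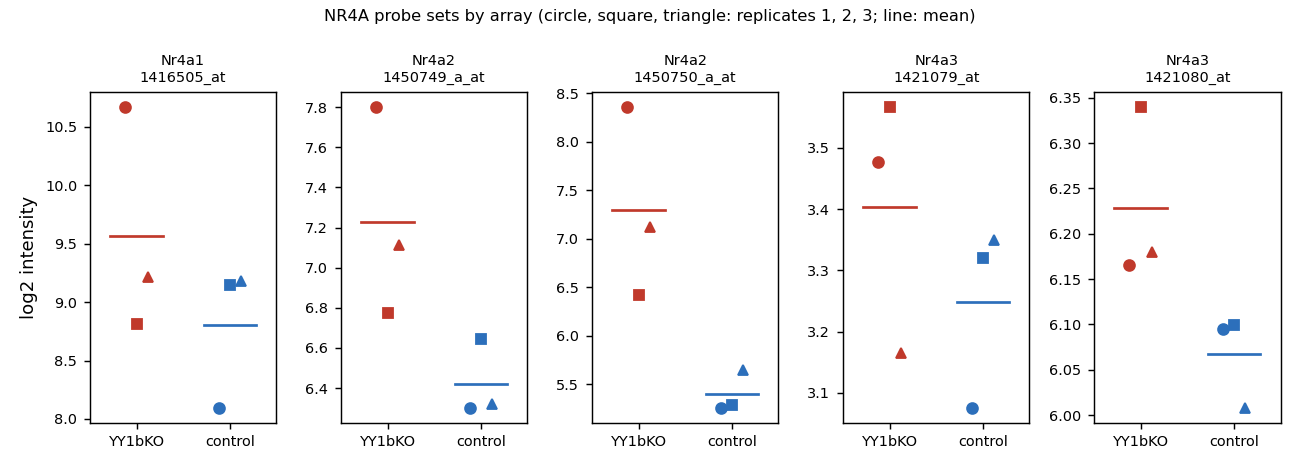
Log2 intensity of the 5 NR4A probe sets on each array, YY1bKO left and control right, with the group mean as a line and a separate vertical scale in each panel. In YY1bKO arrays Nr4a1 and both Nr4a2 probe sets were highest in replicate 1, and the panel of the dim Nr4a2 probe set shows all 3 YY1bKO values above 5.65, the highest control value.

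Among the receptors for thyroid hormone, retinoids and vitamin D, 9 of 9 were measured and 0 called. Rxra, which encodes RXR alpha, the shared dimer partner of many receptors of the family, was the member with the smallest adjusted p. It had 7.36, 7.36 and 7.49 in YY1bKO arrays, against 7.68, 8.05 and 7.70 in control arrays. Every YY1bKO value lay below every control value, and control replicate 2 was the highest. The log2 fold change was -0.40 ± 0.12 (SE, limma adjusted p = 0.0621). Its dimmer probe set overlapped between the groups and gave -0.033. Without control replicate 2 the fold change of Rxra was -0.28 (adjusted p = 0.0517). Rxra was called lower when dim genes were left out, where 30.3% of genes were called (limma adjusted p = 0.0465), with array weights, where 25.5% were called (0.0417), and with the mean of the muscle markers as a covariate, where 29.6% were called (0.00909).

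Thra, the gene of thyroid hormone receptor alpha, had 7.77, 7.61 and 7.57 in YY1bKO arrays, against 7.91, 8.30 and 7.80 in control arrays. The groups did not overlap, and control replicate 2 was again the highest. Its log2 fold change was -0.35 ± 0.14 (SE, limma adjusted p = 0.142), and it was called lower with the muscle covariate (-0.42, adjusted p = 0.0110). Without control replicate 2 it was -0.20 (adjusted p = 0.169). The other Thra probe set gave -0.40, also without overlap. Thrb, the beta receptor, was measured by a dim probe set at 4.62, 4.59 and 4.47 in YY1bKO arrays, against 4.31, 4.08 and 4.50 in control arrays, a log2 fold change of 0.26 that was called with the muscle covariate only (0.31, limma adjusted p = 0.0446).

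The other RXR genes showed smaller differences. Rxrb had 9.02, 9.50 and 9.40 in YY1bKO arrays, against 9.22, 9.22 and 9.30 in control arrays, a log2 fold change of 0.059. Rxrg, the RXR gene known for expression in muscle, had 8.15, 8.16 and 7.88 in YY1bKO arrays, against 7.81, 8.32 and 7.89 in control arrays, which gave 0.056 and, without control replicate 2, 0.21 (limma adjusted p = 0.216). The control values of Rxrg spanned a wider range than the difference between the groups. The retinoic acid receptor genes Rara, Rarb and Rarg gave 0.18, -0.15 and 0.099, with adjusted p from 0.362 to 0.751, and the vitamin D receptor gene Vdr, which was dim, gave 0.034.

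Of the steroid receptors, 3 of 4 were measured. Nr3c1, which encodes the glucocorticoid receptor, had 9.49, 9.18 and 9.50 in YY1bKO arrays, against 9.54, 9.87 and 9.54 in control arrays. The groups lay close together without overlap, at a log2 fold change of -0.26 (limma adjusted p = 0.233), which was -0.16 without control replicate 2 or YY1bKO replicate 2. A second bright probe set of Nr3c1 overlapped and gave -0.063, and a dim one gave 0.051. Esr1 (estrogen receptor alpha) and Pgr (progesterone receptor) had dim probe sets. Esr1 had 3.42, 3.41 and 3.28 in YY1bKO arrays, against 3.12, 3.03 and 3.19 in control arrays. These Esr1 values did not overlap (log2 fold change 0.26, limma adjusted p = 0.0817), and were called higher with the muscle covariate (adjusted p = 0.0432). Pgr gave 0.12.

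Sensors of lipids, bile acids and foreign compounds were represented by 5 of 6 genes. Nr1h3 (LXR alpha, an oxysterol receptor) was the only bright one, with 7.93, 7.91 and 7.96 in YY1bKO arrays, against 7.74, 7.40 and 7.97 in control arrays. The YY1bKO arrays lay close together, control replicate 3 lay at their level and control replicate 2 was the lowest. The log2 fold change was 0.23 ± 0.14 (SE, limma adjusted p = 0.319), and it was called higher with the muscle covariate (0.30, adjusted p = 0.0320), while without control replicate 2 it was 0.083 (adjusted p = 0.576). The FXR gene Nr1h4, the PXR gene Nr1i2, the CAR gene Nr1i3 and Ppard were dim, and their log2 fold changes ran from 0.0064 to 0.077. FXR, PXR and CAR are known mainly from liver and intestine.

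The remaining orphan and constitutive receptors numbered 12 without the NR4A genes. Nr1d2 (REV-ERB beta, a clock repressor) had 11.52, 11.71 and 12.09 in YY1bKO arrays, against 11.71, 11.19 and 11.70 in control arrays, and Rora (ROR alpha, which binds the same DNA element as an activator) had 8.55, 8.67 and 8.57 in YY1bKO arrays, against 8.20, 8.89 and 8.30 in control arrays. Control replicate 2 was the lowest array for Nr1d2 and the highest for Rora, and their log2 fold changes were 0.24 and 0.14 (limma adjusted p = 0.461 and 0.657). Without control replicate 2, Rora was called higher (0.35 ± 0.084, SE, limma adjusted p = 0.0262), the only member called then, where 25.0% of all genes were called, and Nr1d2 gave 0.065. In that setting 12 of the 13 skeletal muscle markers were called higher as well. Rora was not called with the muscle covariate, and its log2 fold change ran from 0.0071 to 0.35 over the other settings run.

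Nr2f2 (COUP-TFII, known in veins, lymphatic vessels and stromal cells) had 7.67, 7.42 and 7.89 in YY1bKO arrays, against 7.96, 7.85 and 8.01 in control arrays. Its 3 probe sets gave log2 fold changes of -0.28, -0.25 and -0.33, none called. Of the 8 endothelial markers, whose mean is given above, 4 were called lower, Cdh5 (-0.53), Tek (-0.65), Kdr (-0.53) and Cldn5 (-1.19). This count became 6 on removal of control replicate 2, but 1 for YY1bKO replicate 2 and 2 for control replicate 1, and was 3 or 4 for the other arrays. Of 8 smooth muscle and pericyte markers 3 were called lower, Rgs5 (-0.53), Cspg4 (-0.95) and Pdgfrb (-0.77), and the other 5, among them Acta2 (0.20) and Cnn1 (0.49), had positive log2 fold changes that were not called, so that the list median was 0.18. The mean of these smooth muscle and pericyte markers was 8.57 to 8.70 in YY1bKO arrays and 8.36 to 9.07 in control arrays. The part of these cells in the Nr2f2 values was not tested. Nr2f1 (COUP-TFI), which was dim, gave -0.21, and Nr2f6 gave 0.17 without overlap in its brighter probe set and -0.017 in the other.

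The testicular receptor genes Nr2c1 and Nr2c2 gave 0.14 and 0.13, each with control replicate 2 as the lowest array. Nr0b2 (SHP, a receptor without a DNA-binding domain that represses others) was dim, with 5.28, 5.33 and 5.32 in YY1bKO arrays, against 5.005, 5.12 and 5.13 in control arrays. It did not overlap (log2 fold change 0.22, limma adjusted p = 0.0905), and was called with array weights (adjusted p = 0.0393). Hnf4a, Nr5a1 (SF-1, a regulator of steroid-making cells), Nr5a2 (LRH-1) and Nr6a1 (GCNF) were dim in the probe set that stood for them and gave 0.041 to 0.13.

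Of the coregulators, 5 of 6 were measured and 0 called. Ncoa1, a p160 coactivator, had 8.97, 9.03 and 8.89 in YY1bKO arrays, against 8.81, 8.71 and 8.84 in control arrays. The groups did not overlap, at a log2 fold change of 0.17 ± 0.079 (SE, limma adjusted p = 0.188), and its other probe set gave 0.27. Med1 had 9.17, 9.06 and 8.89 in YY1bKO arrays, against 9.14, 9.13 and 9.11 in control arrays (log2 fold change -0.086), and its 5 other probe sets gave 0.026 to 0.34, so the Med1 probe sets differed in sign. Nrip1 had 8.24, 8.45 and 8.46 in YY1bKO arrays, against 8.79, 8.16 and 8.48 in control arrays. The groups overlapped, and Nrip1 gave -0.092, and 0.25 in its other probe set. Ncoa2 and Ncoa3 were dim and gave 0.011 and -0.16. Of the 21 members with more than 1 probe set, 13 had log2 fold changes of 1 sign in all of them.

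Control replicate 2 was either the highest or the lowest of the 6 arrays for 22 of the 37 members, or 59.5%, and for 45.1% of all genes. The part of the muscle transcripts on that array in the member values was not tested beyond the settings above. With the muscle marker mean as a covariate 5 of the 37 members were called, or 13.5%, where 29.6% of all genes were called, Esr1, Nr1h3 and Thrb as higher and Rxra and Thra as lower.

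**Figure D4:**
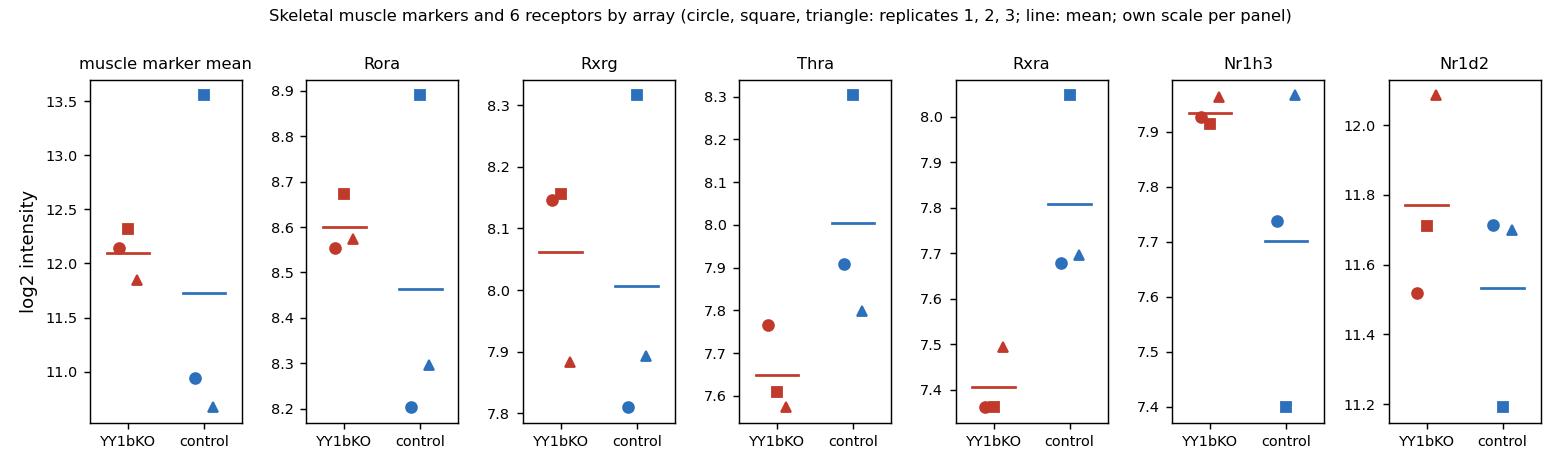
Mean log2 intensity of the 13 skeletal muscle markers (left panel) and log2 intensity of 6 receptor genes on each array, YY1bKO left and control right in each panel, with group means as lines and a separate scale per panel. Control replicate 2 (square) is the highest array for the muscle markers, Rora, Rxrg, Thra and Rxra and the lowest for Nr1h3 and Nr1d2.

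The factor deleted in these mice has a known DNA motif, and its core letters were looked for in the promoter windows of 35 members (51 windows). The core CCATNTT, on either strand, occurred in 11.8% of these windows and in 16.1% of all windows. The letters ATGGCGG, which overlap that core on the opposite strand, occurred in 7.84% of the member windows and in 4.05% of all windows. Ncoa1 and Rxrb are shown because they were the measured members in whose windows both runs occurred, as AACATGGCGG or AAGATGGCGG. The Ncoa1 window lies at chr12:4477133-4477432 (minus strand) and the Rxrb window shown at chr17:34031562-34031861 (plus strand), with these matches in capitals. Another Rxrb window, at chr17:34032100-34032399, held neither run and is not shown.
Ncoa1: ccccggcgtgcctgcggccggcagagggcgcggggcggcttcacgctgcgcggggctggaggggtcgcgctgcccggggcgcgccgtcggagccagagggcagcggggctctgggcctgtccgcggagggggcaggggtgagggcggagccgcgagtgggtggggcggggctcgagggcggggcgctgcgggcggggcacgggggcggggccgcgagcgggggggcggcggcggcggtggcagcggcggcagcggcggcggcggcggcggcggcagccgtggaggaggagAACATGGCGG
Rxrb: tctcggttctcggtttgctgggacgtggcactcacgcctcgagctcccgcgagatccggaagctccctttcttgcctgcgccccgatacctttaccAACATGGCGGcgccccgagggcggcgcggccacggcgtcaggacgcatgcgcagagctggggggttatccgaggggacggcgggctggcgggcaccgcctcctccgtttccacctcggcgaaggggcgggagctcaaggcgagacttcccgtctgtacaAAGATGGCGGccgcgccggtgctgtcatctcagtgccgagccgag
Counted with the start as base 1, the match in Ncoa1 began at base 41, and those in Rxrb began at base -154 and base 6. Neither gene was called, with log2 fold changes of 0.17 for Ncoa1 and 0.059 for Rxrb. The receptor half-site AGGTCA was present in 17.6% of member windows and 16.3% of all windows, and its direct repeats with 1 to 5 bases between were present in 0 member windows and in at most 0.0396% of all windows.

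Nuclear receptors outside the 40 names were listed as well. Of 14 others listed, 10 were measured and 0 called, with 1 at an unadjusted p under 0.05, so that 42 receptors in all gave no call in the limma gene fit. Over all genes 18.3% were called, and 8.18% of the dim ones. Of these 10 receptors 6 were dim, as were 19 of the 37 members. Pparg, the master regulator of fat cells, had 11.09, 11.01 and 11.10 in YY1bKO arrays, against 11.61, 10.87 and 11.31 in control arrays. Ppara, the fatty acid receptor, had 10.07, 10.64 and 10.74 in YY1bKO arrays, against 11.06, 10.63 and 11.07 in control arrays. The log2 fold changes were -0.19 for Pparg and -0.43 for Ppara (limma adjusted p = 0.518 and 0.206), and without control replicate 2 that of Pparg was called at -0.39 (adjusted p = 0.0434). Esrra, the estrogen-related receptor alpha of mitochondrial gene control, gave 0.17, and Nr1d1, the REV-ERB alpha partner of Nr1d2 in the clock, gave 0.29. Without control replicate 1, Rorb, the ROR beta gene, was called higher (0.38, adjusted p = 0.0476).

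Of the coregulators outside the 40 names 7 of 21 were called, or 33.3%. All but 1 of the 21 were bright, and 26.3% of all bright genes were called. Of the 21, 3 were higher in YY1bKO tissue (Ppargc1a, Med14 and Ccnc) and 4 lower (Med12, Crebbp, Tbl1x and Ppargc1b). Ppargc1a (PGC-1 alpha), the inducible coactivator of PPAR, thyroid hormone and estrogen-related receptors, had 10.79, 10.92 and 10.91 in YY1bKO arrays, against 9.68, 10.05 and 9.61 in control arrays (log2 fold change 1.09 ± 0.13, SE, limma adjusted p = 0.00356). The groups did not overlap, and the call was kept without any single array. Averaged over all its probe sets, Ppargc1a gave 0.61 (adjusted p = 0.0331). The Mediator subunit genes Med12 (-0.64, adjusted p = 0.0167) and Med14 (0.46, adjusted p = 0.0284) went in opposite directions. Each lost its call on the removal of any 1 of 4 arrays, Med12 with adjusted p up to 0.0694 without a YY1bKO array or control replicate 1, and Med14 up to 0.0836 without YY1bKO replicate 1 or 2 or control replicate 1 or 3. Crebbp and Ccnc lost their calls on the removal of any 1 of the 6 arrays, and Tbl1x and Ppargc1b of any but control replicate 2. With a block for the replicate number the calls of Med12 (limma adjusted p = 0.0540) and Med14 (0.0536) were lost too. So were those of Tbl1x (0.0895), Ppargc1b (0.107) and Ccnc (0.0773), while that of Crebbp was kept (0.0424). The list counts were 1 higher and 0 lower when YY1bKO replicate 1, YY1bKO replicate 2 or control replicate 1 was removed. They were 2 and 0 when YY1bKO replicate 3 was removed, 3 and 3 for control replicate 2, and 2 and 1 for control replicate 3.

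Enzymes and carriers that supply or remove receptor ligands had 3 lower and 0 higher genes among 18 measured, where 18.3% of all genes were called. Of these 18 genes 11 were dim. Cyp27a1, which makes 27-hydroxycholesterol, a ligand of LXR, had 8.52, 8.66 and 8.53 in YY1bKO arrays, against 9.44, 9.24 and 9.42 in control arrays (log2 fold change -0.80 ± 0.090, SE, limma adjusted p = 0.00322). Rbp4, the retinol carrier of plasma, had 10.10, 9.62 and 10.19 in YY1bKO arrays, against 11.07, 11.12 and 11.20 in control arrays (-1.16 ± 0.15, adjusted p = 0.00500). Neither gene overlapped between the groups, and both calls were kept without any single array. Hsd11b1, which regenerates active glucocorticoid inside cells, had 9.21, 9.47 and 9.11 in YY1bKO arrays, against 10.95, 9.72 and 11.25 in control arrays. It was 2.59-fold lower (log2 fold change -1.38, limma adjusted p = 0.0485). Without control replicate 1 or 3 or any YY1bKO array the log2 fold change was -1.07 to -1.48 and the call was lost, with adjusted p up to 0.148, and without control replicate 2 it was -1.83 (adjusted p = 0.000707). The Hsd11b1 call was also lost with the trend and robust options (adjusted p = 0.0795), after quantile normalization (0.0536) and with a block for the replicate number (0.0891). The list held 2 lower genes without any array except control replicate 2.

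Among known target genes of the receptors 9 of 59 were called, or 15.3%, where the share among all genes was 18.3%, so that the counts by list that follow are no more frequent than calls in general. Of 12 glucocorticoid receptor targets 2 were lower, Sgk1 by 0.49 and Lcn2 by 1.32 on the log2 scale, with a list median of -0.39. The metallothionein genes Mt1 (0.71, adjusted p = 0.161) and Mt2 (1.23, adjusted p = 0.139) of the same list lay higher in YY1bKO arrays without overlap and were not called, while with the muscle covariate both were called higher (adjusted p = 0.00290 and 0.00171). The call of Sgk1 (limma adjusted p = 0.0200) was kept only without control replicate 2 and that of Lcn2 (0.0285) only without control replicate 2 or 3, so that the list held 0 lower genes without control replicate 1 or any YY1bKO array, 1 without control replicate 3 and 4 without control replicate 2, where Errfi1 and Ddit4 were added. Of 8 thyroid hormone receptor targets 1 was lower. This was Hr (hairless, a corepressor that thyroid hormone induces in brain), which had 5.78, 5.86 and 5.48 in YY1bKO arrays, against 6.97, 6.49 and 6.85 in control arrays (log2 fold change -1.07 ± 0.16, SE, limma adjusted p = 0.00704). The Hr probe set was dim, its groups did not overlap and its call was kept without any single array. In the mean over probe sets Hr gave -0.50 (adjusted p = 0.0169), and without control replicate 2 Me1 (malic enzyme) was called lower as well.

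Of 11 LXR targets 1 was higher, Abca1, the exporter of cholesterol, with 11.63, 11.40 and 11.86 in YY1bKO arrays, against 10.72, 10.57 and 10.97 in control arrays (log2 fold change 0.88 ± 0.15, SE, limma adjusted p = 0.0113). Its call too was kept without any single array. Of 9 PPAR targets 2 were higher and 1 lower. The thioesterase gene Acot1 rose by 1.53 (adjusted p = 0.00976) and the hormone gene Fgf21 by 1.62 (adjusted p = 0.00901), while Angptl4, an inhibitor of lipoprotein lipase, fell by 0.96 on the log2 scale (adjusted p = 0.0369). The Angptl4 call was lost without control replicate 1 or 3 or any YY1bKO array, with adjusted p up to 0.121, and the list then held 0 lower genes. It was also lost in the mean over probe sets (-0.62, adjusted p = 0.0997).

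Of 6 targets of ROR and REV-ERB, Clock (0.43) and Elovl3 (1.14), a fatty acid elongase of brown fat, were higher. The Clock call (limma adjusted p = 0.0328) was lost without control replicate 3 or any YY1bKO array and that of Elovl3 (0.0396) without control replicate 1 or any YY1bKO array, so that the list held 0 higher genes without a YY1bKO array and 1 without control replicate 1 or 3. The Clock call was also lost in the mean over probe sets (0.18, adjusted p = 0.195) and that of Elovl3 with the trend and robust options (0.0533). None of 7 retinoid targets and none of 8 targets of CAR, PXR and FXR was called by limma, with 0 and 1 at an unadjusted p under 0.05, and Cyp2b10, a CAR target, was called lower without control replicate 2. Over these lists of other receptors, coregulators, ligand enzymes and targets 19 of 104 different genes measured were called, or 18.3%, the share called among all genes. The call of 7 of the 19 was kept without any single array.

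**Figure D5:**
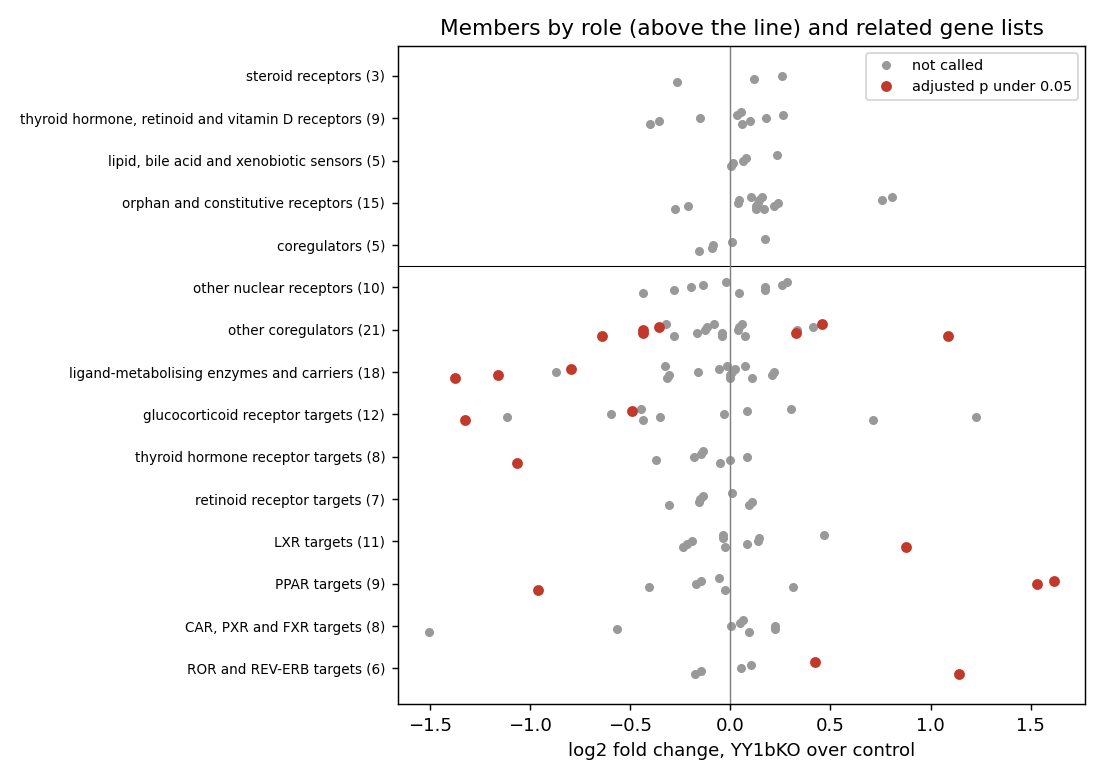
Log2 fold change of YY1bKO over control tissue for each measured gene, by role for the members (above the line) and by list for other receptors, coregulators, ligand enzymes and target genes (below it), with called genes in red and the number measured in brackets. Red points appear in 7 of the lists below the line and in 0 of the 5 rows above it.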

How the data were processed

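Total RNA of 6 brown fat samples was hybridised to Affymetrix expression arrays. The deposited table holds 1 intensity per probe set and array for 22690 probe sets, on a linear scale from about 4.91 to 21219, and RMA is named per the submitters' processing notes. The sources used here do not name the program or version that ran it. All arrays are forced by RMA to nearly equal distributions, so a change in most transcripts at once would not show, and it shrinks fold changes of dim probe sets. Tests were planned on log2 values, and the deposited intensity was therefore put on the log2 scale, with no pseudocount. The 64 Affymetrix control probe sets were removed. Of the other 22626, 20380 had 1 gene symbol in the platform annotation, 691 several and 1555 none. A gene table of GRCm38.p6 matched 20351 of these by Entrez identifier and changed 0 symbols.

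Limma 3.58.1 in R 4.3.3 (lmFit, eBayes) was fitted to 12393 genes and, separately, to all 22626 probe sets, with group as the only term, two-sided tests and Benjamini-Hochberg adjustment over the whole table. Every adjusted p for a gene is from limma. Intervals are unadjusted limma 95% intervals. The fit was tested on simulated data. The labels do not say whether each replicate is its own animal. The p-values therefore cover only the spread among these arrays, whose number limits precision. Arrays correlated across genes at 0.978 to 0.996 within control and 0.996 within YY1bKO. Promoter windows came from RefSeq tables of GRCm38.p6, for 35 of the 40 genes. Members and lists were chosen with earlier results of these data known. Genes named with all values were the brightest member of each role, the smallest adjusted p, the 4 receptors with the largest differences and up to 3 called genes of each list; Yy1, Ppara, Pparg, Nr1d1, Esrra, Ppargc1a and Ucp1 were named in any case, and other members were added after their values were seen. Promoters were to be shown for called members; since 0 were called, those shown were chosen afterwards, as was the search for the single half-site AGGTCA. Alternatives covered the probe set choice, a filter on dim genes, normalization, the variance prior, array weights, a block for the replicate number, muscle markers as a covariate and each array left out. Runs of these on all probe sets, and of the lists without each array, and the Nr4a1 means without 2 arrays, were added after seeing the data.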

Additional observations from a re-analysis of the deposited data

How the results depend on the processing

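The count of called members was 0 higher and 0 lower among all genes tested. It was also 0 and 0 after quantile normalization, after median centring, with the trend and robust options, with at least a 1.5-fold change, with adjustment over all probe sets, with the replicate block, and without any array except control replicate 2. It moved to 1 higher without control replicate 2, so that leaving out each array gave 0 to 1 higher and 0 to 0 lower. It was 1 higher in the mean over probe sets, 1 lower without dim genes (fewer genes tested), 2 higher and 1 lower with array weights, and 3 higher and 2 lower with the muscle covariate; the cause was not tested. Of 71 member probe sets, 1 was called higher and 0 lower. This became 0 higher and 1 lower without dim probe sets, where the called Nr4a2 probe set is itself left out, 0 higher with trend and robust options, 3 higher and 2 lower with array weights and 6 higher and 3 lower with the muscle covariate. Leaving out each array gave 0 to 2 higher. The log2 fold change of 13 of the 37 members took both signs over the settings run (Med1, Ncoa2, Nr1h4, Nr1i2, Nr5a1, Nr5a2, Nr6a1, Nrip1, Ppard, Rarg, Rxrb, Rxrg and Vdr), all at most 0.10 in size in the reported fit, and 24 kept 1 sign. Of the members named for their level, Med1 turned sign in the mean over probe sets (0.087), and Rxrb ranged from -0.036 to 0.20 over the arrays left out, negative without YY1bKO replicate 2; neither was called. The labels do not say whether arrays of the same replicate number share a litter or a batch. Arrays of the same number deviated from their group means with correlations of -0.25, 0.11 and 0.26. With 3 arrays a side these correlations cannot decide the question. With the replicate block 1310 genes were called in all, against 2270 without it. Dim probe sets limit what 19 members can show.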
